A study of Mus musculus with 9 samples.

Results

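Matrix metalloproteinases (MMPs) and the tissue inhibitors of metalloproteinases (TIMPs) were followed in the lungs of irradiated and control mice. The set was given as 10 gene symbols, 6 proteases (Mmp2, Mmp3, Mmp9, Mmp11, Mmp14 and Mmp19) and 4 inhibitors (Timp1, Timp2, Timp3 and Timp4), out of 19698 genes that could be named on the arrays. The rule that names them uses no measured difference, although it was set with earlier results of these data known. Each gene was read from the brightest of its probes. RNA of lung from male C57BL/6 mice, 10 weeks old, was hybridized to 9 one-color arrays, of which 4 are titled Control and 5 Irradiated. The irradiated arrays carry left lung that had received a single exposure to radiation while the animals were anesthetized with zoletil and rompun. The dose, the part of the lung and the interval after exposure are absent from the sample annotation, so the 5 irradiated arrays may stand for different exposures and intervals, and the spread among them includes any such difference. The methods state that RNA from triplicate experiments was pooled before labeling, so an array can hold the RNA of several mice and p-values refer to the spread between arrays.

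MMPs are zinc-dependent endopeptidases that are secreted or anchored to the cell surface as inactive proenzymes and, once activated, cleave collagens, elastin, fibronectin and other components of the extracellular matrix. TIMPs bind the active site of these enzymes and block them, and one of them, TIMP2, also takes part in the activation of proMMP2 by the membrane-type protease MMP14. In the lung these proteins are known from tissue repair, inflammation and fibrosis, where fibroblasts, epithelial cells, macrophages and neutrophils are among their sources.

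The sequence in front of the start of 3 members is shown because Mmp3 and Timp1 were 2 of the 3 members whose irradiated arrays all lay above all control arrays, whereas the groups overlapped for Timp2. Each line gives the 250 bases before the start of the gene in RefSeq on build GRCm38.p6, read 5′ to 3′ along the strand of the gene. The windows are chr9:7445572-7445821 on the plus strand for Mmp3, chrX:20869916-20870165 on the plus strand for Timp1 and chr11:118355412-118355661 on the minus strand for Timp2. Capitals mark matches on either strand to the letters TGANTCA (the AP-1 element), AGGAAG (an ETS element) and GGGCGG (a GC box), and no match in these windows overlapped another.
Mmp3: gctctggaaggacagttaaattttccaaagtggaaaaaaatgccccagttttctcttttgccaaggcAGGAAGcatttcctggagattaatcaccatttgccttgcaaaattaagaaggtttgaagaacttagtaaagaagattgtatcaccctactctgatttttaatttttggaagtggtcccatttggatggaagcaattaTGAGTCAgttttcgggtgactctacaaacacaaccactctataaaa
Timp1: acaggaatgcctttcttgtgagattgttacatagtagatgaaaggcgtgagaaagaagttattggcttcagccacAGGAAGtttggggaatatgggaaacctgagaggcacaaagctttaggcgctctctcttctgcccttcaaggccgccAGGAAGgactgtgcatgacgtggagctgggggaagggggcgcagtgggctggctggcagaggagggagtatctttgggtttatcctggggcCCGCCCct
Timp2: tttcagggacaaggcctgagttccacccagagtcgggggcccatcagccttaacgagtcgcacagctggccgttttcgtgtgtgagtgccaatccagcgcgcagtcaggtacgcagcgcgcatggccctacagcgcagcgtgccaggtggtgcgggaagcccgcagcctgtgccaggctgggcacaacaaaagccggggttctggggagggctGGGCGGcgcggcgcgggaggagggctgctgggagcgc

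The window of Mmp3 held 1 match to the AP-1 letters, TGAGTCA at 46 bases before the start, and 1 match to the ETS letters at 183 bases. The window of Timp1 held no match to the AP-1 letters, 2 matches to the ETS letters at 175 and 99 bases before the start, and 1 match to the GC box at 8 bases, on the opposite strand. The window of Timp2 held only a GC box, at 37 bases before the start. Among 32851 RefSeq windows of the same length, 6.75% held the AP-1 letters, 29.5% the ETS letters and 32.7% the GC box. The G and C content was 37.6% for Mmp3, 54.4% for Timp1 and 68.0% for Timp2, beside a median of 52.4% over all windows. An entry was found for 7 of the 10 members, and the members without one are Mmp2, Mmp9 and Mmp19. Mmp14, Timp3 and Timp4, whose groups overlapped, also held a match to the ETS letters, at 209, 204 and 111 bases before the start. Mmp11, whose groups overlapped as well, held none. A relation of the matches to the differences was not tested. A match describes the letters and does not show that a factor binds there.

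All 10 members were well above background on all 9 arrays. None passed the threshold of an adjusted p under 0.05 in limma, where 131 of 39303 probes (0.333%) and 0.416% of the genes by their brightest probe passed. At an unadjusted p under 0.05 there were 4 of the 10 members and 12.3% of all genes. The 4 members were Mmp2, Mmp3, Mmp19 and Timp1, each higher in irradiated lung, as were 7.37% of all genes at that level. For 3 members, Mmp3, Mmp19 and Timp1, every irradiated array lay above every control array, which held for 3.38% of all genes. The difference between the group means was above 0 for 9 of the 10 members, with a median of 0.44 on the log2 intensity scale, whereas 10223 of the 19698 genes lay above 0 and their median was 0.0085. All levels below are log2 intensities after quantile normalization, and a level of one gene is compared only with the same gene on other arrays.

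**Figure D1:**
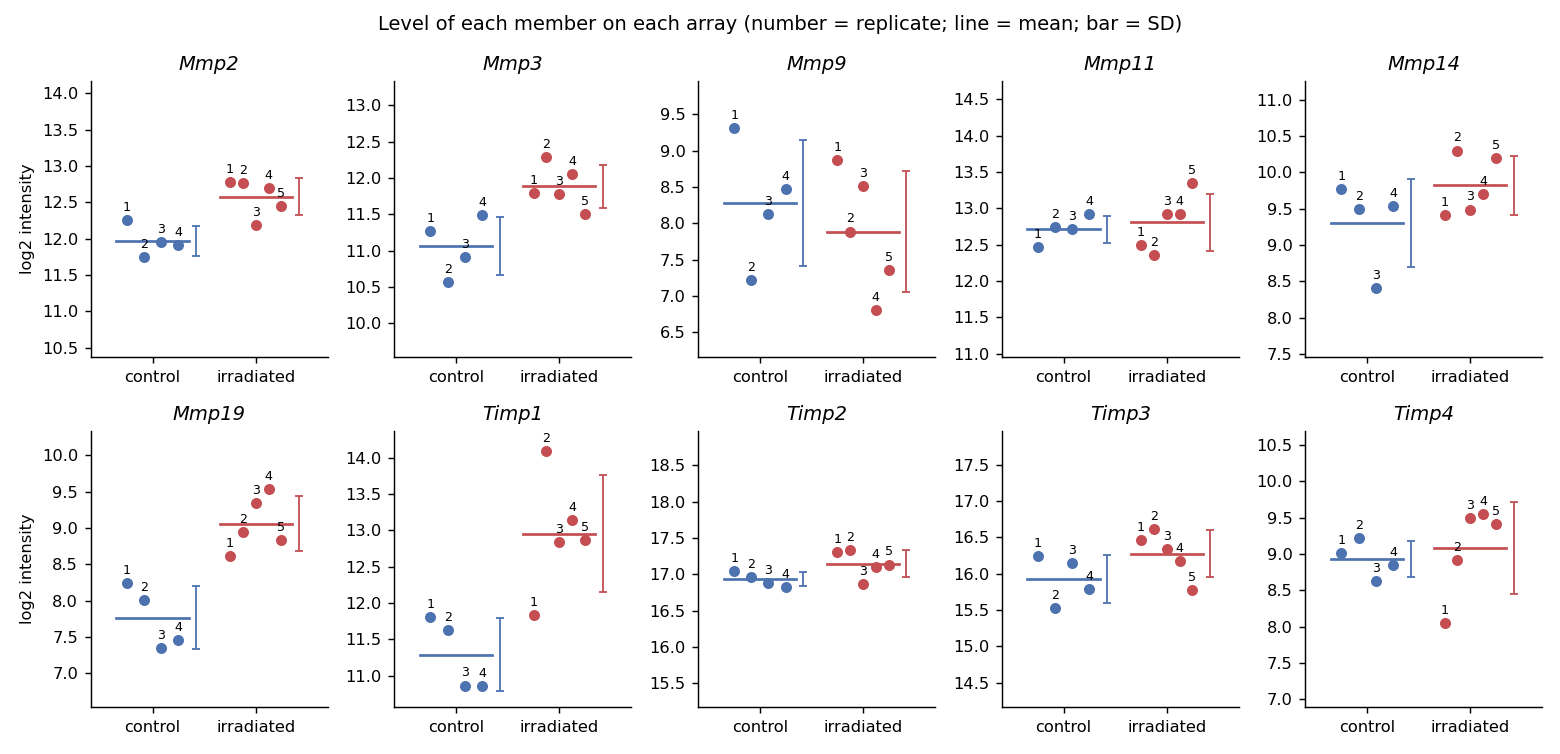
Log2 intensity (y axis, a span of equal size in each panel) of the 10 members on the 4 control arrays (blue) and the 5 irradiated arrays (red), with the replicate number at each point, the group mean as a line and the SD as a bar. The groups are separate for Mmp3, Mmp19 and Timp1, by margins of 0.011, 0.37 and 0.023, and overlap for the other members.

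Of the proteases, Mmp19, a secreted MMP that cleaves basement membrane proteins, differed most. Its level was 8.25, 8.01, 7.34 and 7.46 on control arrays 1 to 4 and 8.62, 8.95, 9.35, 9.53 and 8.84 on irradiated arrays 1 to 5. The groups did not overlap, and the lowest irradiated array lay 0.37 above the highest control array. The irradiated mean was 1.29 higher (SE 0.25, 95% confidence interval 0.74 to 1.85), a 2.45-fold difference, with a limma adjusted p of 0.0719. Mmp19 passed the threshold when the background filter was applied to all 9 arrays (difference 1.29, adjusted p = 0.0497) or when irradiated array 1 was left out (adjusted p = 0.0360). It did not pass with any other single array left out, where the limma adjusted p reached 0.211. The difference was 1.04 with normexp background correction and 0.95 in the authors' normalized table (limma adjusted p = 0.388).

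Mmp3, or stromelysin 1, cleaves proteoglycans and fibronectin and activates other proMMPs. It was measured at 11.28, 10.57, 10.92 and 11.49 in the control lungs and at 11.79, 12.29, 11.78, 12.05 and 11.50 in the irradiated lungs. The groups were separate by only 0.011, since irradiated array 5 was at the level of control array 4. The difference was 0.82 (SE 0.21, 95% confidence interval 0.36 to 1.28), or 1.76-fold, with a limma adjusted p of 0.163. It was 0.53 in the authors' normalized table.

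Mmp2, or gelatinase A, degrades basement membrane collagen and denatured collagen and is made chiefly by fibroblasts and other stromal cells. Its control values were 12.25, 11.75, 11.96 and 11.91 and its irradiated values 12.78, 12.76, 12.19, 12.69 and 12.44. Irradiated array 3 lay below control array 1 and was the only point of overlap, so that 4 of the 5 irradiated arrays exceeded every control array. The difference was 0.61 (SE 0.15, 95% confidence interval 0.28 to 0.94, limma adjusted p = 0.147). Mmp14, the membrane-type protease that activates proMMP2, had control values of 9.76, 9.49, 8.41 and 9.53 and irradiated values of 9.42, 10.30, 9.49, 9.70 and 10.20. Irradiated arrays 2 and 5 exceeded every control array, and control array 3 was the lowest of all. The difference of 0.52 for Mmp14 (SE 0.29, 95% confidence interval −0.13 to 1.18) had a limma adjusted p of 0.634. It was 0.23 without control array 3 and 0.31 in the authors' normalized table.

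Mmp9, or gelatinase B, is stored in neutrophil granules and is also made by macrophages. It was the only member with a lower mean in irradiated lung and the most variable protease of the set. Its values were 9.31, 7.21, 8.12 and 8.47 on the control arrays and 8.86, 7.89, 8.51, 6.80 and 7.36 on the irradiated arrays, each the mean of 10 spots of one probe. The range was 2.10 among the control arrays and 2.06 among the irradiated arrays, and no irradiated array exceeded the highest control. The difference of −0.39 (SE 0.49, 95% confidence interval −1.49 to 0.70, limma adjusted p = 0.881) was smaller than the SD of either group, which was 0.87 for control and 0.84 for irradiated arrays. It was −0.051 without control array 1, −0.12 without irradiated array 4, −0.64 without irradiated array 1 and −0.75 without control array 2. Of the neutrophil markers, 10 of 11 were found and 9 of these were well above background on all arrays. Their mean level relative to the control mean lay between −0.53 and 0.57 in the control group and between −1.02 and −0.22 in the irradiated group, with the highest value on control array 1 and the lowest on irradiated array 4, where Mmp9 was also highest and lowest. On control array 2, where Mmp9 was lowest among the controls, that list stood at 0.09. The part of neutrophil RNA in the values of Mmp9 was not tested.

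Mmp11, or stromelysin 3, is a stromal protease that furin activates inside the cell. Its values were 12.47, 12.74, 12.71 and 12.92 in control lung and 12.49, 12.36, 12.93, 12.92 and 13.34 in irradiated lung, which overlapped over most of their range. The difference was 0.10 (SE 0.19, 95% confidence interval −0.33 to 0.52, limma adjusted p = 0.940) and was −0.035 without irradiated array 5, the highest, and 0.21 without irradiated array 2, the lowest. The other probe of Mmp11 gave 0.15 (limma adjusted p = 0.875).

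Among the inhibitors, Timp1, a secreted inhibitor that cytokines induce in many cell types, had the largest difference of all members. It was at 11.81, 11.63, 10.87 and 10.86 on the control arrays and at 11.83, 14.09, 12.85, 13.14 and 12.87 on the irradiated arrays. Irradiated array 1 was within 0.023 of the highest control array, whereas irradiated arrays 2 to 5 were all more than 1 log2 unit above it. The irradiated mean was 1.66 higher (SE 0.39, 95% confidence interval 0.79 to 2.54), or 3.17-fold, and the limma adjusted p was 0.138. Without irradiated array 1 the difference was 1.94, with an adjusted p of 0.0292. Without irradiated array 2 the difference was 1.38 (limma adjusted p = 0.177), and in the authors' normalized table it was 1.27 (limma adjusted p = 0.319).

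Timp2, the inhibitor that assists in the activation of proMMP2, varied least. Its values were 17.05, 16.97, 16.89 and 16.82 in control lung and 17.31, 17.33, 16.86, 17.10 and 17.14 in irradiated lung. Of the irradiated arrays, 4 exceeded every control and array 3 lay within the control range. The difference was 0.22 (SE 0.11, 95% confidence interval −0.02 to 0.45, limma adjusted p = 0.551), and the other Timp2 probe gave 0.29 (limma adjusted p = 0.704). With 75th percentile scaling the difference was 0.14.

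Timp3 is the inhibitor that is held in the matrix and that also blocks ADAM17, the protease that releases tumor necrosis factor from the cell surface. It was at 16.24, 15.52, 16.15 and 15.79 in control and at 16.46, 16.61, 16.34, 16.18 and 15.77 in irradiated lung. The groups overlapped through irradiated arrays 4 and 5, and the difference was 0.35 (SE 0.19, 95% confidence interval −0.08 to 0.78, limma adjusted p = 0.617). It was 0.22 without control array 2 and 0.22 in the authors' normalized table.

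Timp4, the inhibitor known for its high level in heart, was at 9.01, 9.22, 8.64 and 8.85 in control and at 8.05, 8.92, 9.50, 9.55 and 9.42 in irradiated lung. Irradiated array 1 was the lowest of all 9 and irradiated arrays 3 to 5 were the highest. The difference was 0.16 (SE 0.30, 95% confidence interval −0.51 to 0.82, limma adjusted p = 0.938). With 1 array left out it lay between 0.042 (without irradiated array 4) and 0.42 (without irradiated array 1). Irradiated array 1 was also the array on which the mean of 11 cardiac muscle genes stood 5.38 below the control mean, against −0.46 to 0.43 on the other irradiated arrays and −0.56 to 0.59 on the control arrays. The part of heart muscle RNA in the Timp4 values was not tested.

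**Figure D2:**
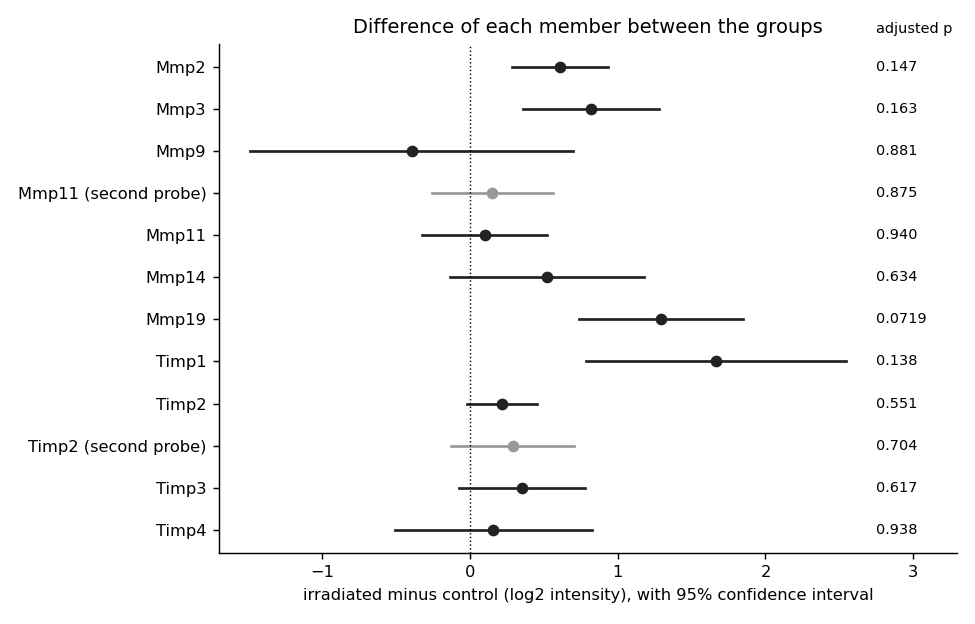
Difference between irradiated and control means in log2 intensity (x axis) for each member, with its 95% confidence interval, for the brightest probe (black) and the second probe of Mmp11 and Timp2 (gray), and the limma adjusted p at the right. The intervals of Mmp2, Mmp3, Mmp19 and Timp1 lie above 0, from 0.28 for Mmp2 at the lowest bound to 2.54 for Timp1 at the highest, and those of the other members include 0.

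The median difference was 0.57 over the 6 proteases and 0.28 over the 4 inhibitors. The arrays of one group differed in which members were high. Irradiated array 2 held the highest value of 5 of the 10 members over all 9 arrays, among them Timp1 and Mmp3, but its Mmp19 value was only the third of the irradiated group. Irradiated array 4 held the highest value of Mmp19 and of Timp4 and the lowest of Mmp9. On irradiated arrays 3 and 4, 9 of the 10 members were above their control mean, and this was also so on control array 1, while control array 3 had 2.

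The lung identity of the arrays was checked with 14 genes of alveolar, airway and endothelial cells. All 14 were well above background on all 9 arrays, and their mean relative to the control mean lay between −0.09 and 0.07 on the control and between 0.04 and 0.22 on the irradiated arrays. The RNA came from whole tissue, in which fewer cells of a type and less RNA per cell cannot be told apart. Of the macrophage markers, 12 of 13 were found and all were well above background. Their mean ranged from −0.20 to 0.39 on the control and from 0.17 to 0.32 on the irradiated arrays, and their summed level from 18.03 to 18.94 and from 18.38 to 18.94. None of the 12 passed the threshold, 5 were higher and 0 lower at an unadjusted p under 0.05, beside 7.37% of all genes higher, and their median difference was 0.40. The groups were separate for 2 of them, Adgre1 and Mrc1, with irradiated above control, beside 3.38% of all genes. The difference was above 0 for 9 of the 12 and below 0 for 3, Marco (−0.63), Siglecf (−0.47) and Ear2 (−0.30). Fibroblast markers (10 of 10 found) lay between −0.14 and 0.22 and between −0.27 and 0.21, and smooth muscle markers (7 of 7) between −0.20 and 0.26 and between −0.93 and −0.11.

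Adipocyte and muscle markers differed widely between some arrays. Adipocyte markers (8 of 8) lay between −0.58 and 0.43 in the control group and between −3.32 and −0.06 in the irradiated group, and skeletal muscle markers (11 of 11) stood at 3.87 on control array 3 and between −1.60 and −0.98 on the other control arrays. On the irradiated arrays the skeletal muscle list ranged from −1.84 to −0.90. Mesothelium markers (7 of 7) ranged from −0.61 to 0.80 in control and from −0.61 to 0.55 in irradiated lung. The summed level of the neutrophil list ranged from 18.07 to 18.85 on the control and from 17.87 to 18.39 on the irradiated arrays. Every marker of these lists was well above background on at least 1 array. Of the skeletal muscle list, 6 of 11 were well above background on all 9 arrays. Myh1 and Myh4 were so on only 1 control and 1 irradiated array, so the mean of that list rests in part on values near background. Without irradiated array 1 and control array 3 together, an alternative chosen after seeing the data, no member passed the threshold, and 155 of the probes did. The part of these cell types in the values of the members was not tested.

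**Figure D3:**
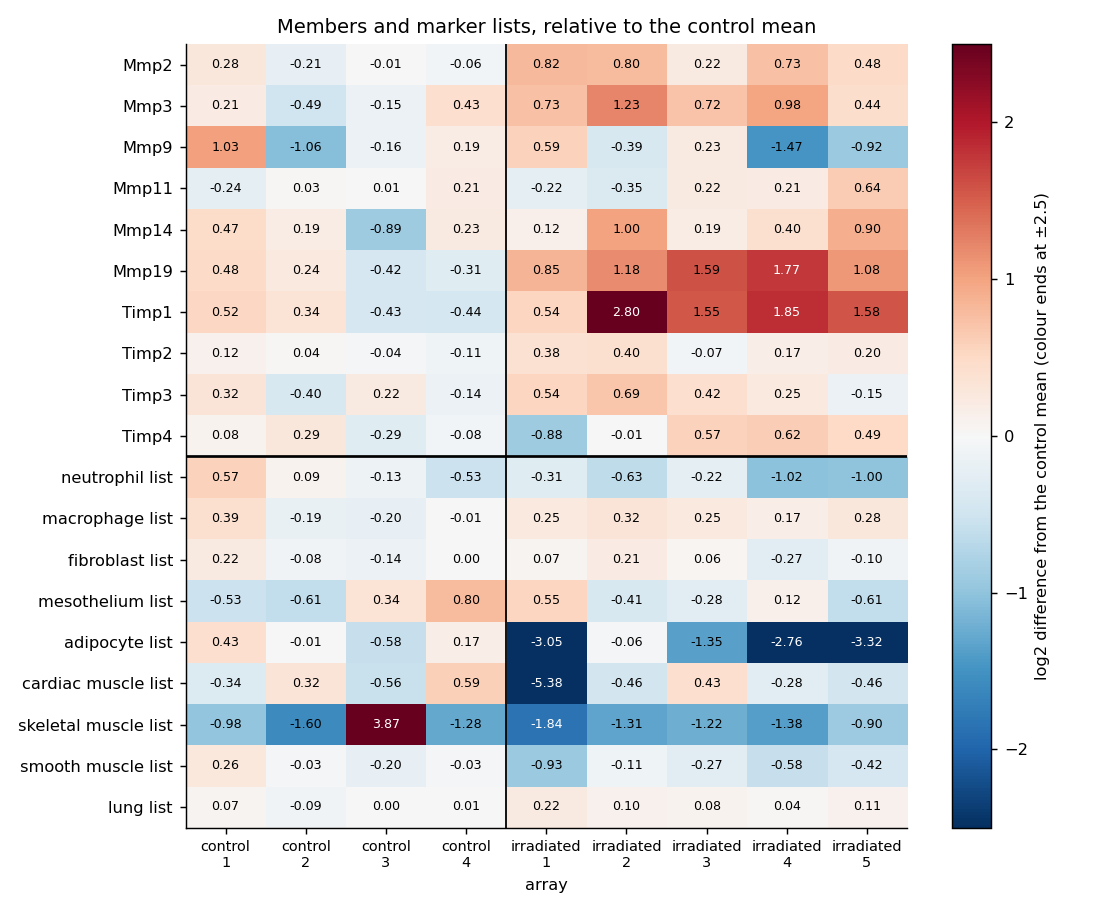
Values of the 10 members (upper rows) and the mean of each marker list (lower rows) on the 9 arrays (columns), each as the log2 difference from the mean of the control arrays, with the color scale ending at 2.5 in either direction. Mmp19 and Timp1 are above the control mean on all irradiated arrays, the cardiac muscle list is at −5.38 on irradiated array 1, and the skeletal muscle list is at 3.87 on control array 3.

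The scanner files name no slide or scan. The top edge of the spots on the scan image and the median local background were alike in 4 pairs of arrays, each with 1 control and 1 irradiated array, which were each other's nearest in these measures, while the left edges differed within every pair. Irradiated array 1 (top edge 224.3 pixels, background 40) was left without a partner. Its nearest array was irradiated array 3 in top edge (220.1) and control array 2 in background (43.5), which formed a pair with each other. Within the 4 pairs Timp1 was higher in the irradiated array by 2.28, 1.21, 2.27 and 2.02, and Mmp19 by 0.70, 1.34, 2.19 and 1.38. Mmp2 was higher by 0.51, 0.44, 0.73 and 0.54. Mmp3 was higher by 1.02, 1.21 and 1.13 in 3 pairs and by 0.011 in the pair of control array 4 and irradiated array 5. These 4 members were higher in irradiated lung in all 4 pairs. Mmp11, Mmp14, Timp2, Timp3 and Timp4 were higher in 3 of 4, and Mmp9 was lower in 3 of 4. The pairs reuse the arrays of the main comparison, so these counts are not separate evidence.

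With the pairs as a fixed block in limma, which leaves irradiated array 1 out of the estimate, 1104 of 39303 probes passed the threshold, beside 131 without a block. Mmp2 (difference 0.56, adjusted p = 0.0331) and Timp1 (1.94, adjusted p = 0.0273) passed in that fit. With the pairs as a random block, 2895 of 39303 probes passed, and so did Mmp2 (0.58, adjusted p = 0.00610), Mmp3 (0.83, adjusted p = 0.0197), Mmp19 (1.36, adjusted p = 0.00570) and Timp1 (1.83, adjusted p = 0.00465). The other 6 members did not pass in either fit. Both blocks raised the number of calls over all probes, not only among the members. The pairs were formed after seeing the scans, and the labels do not name them.

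**Figure D4:**
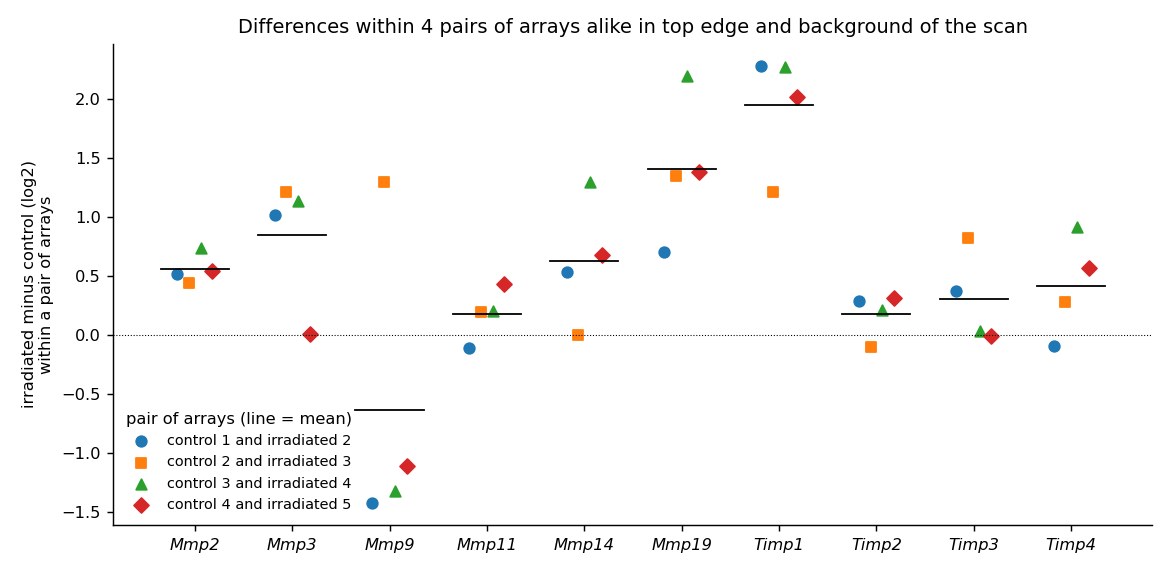
Irradiated minus control log2 intensity (y axis) of each member within 4 pairs of arrays alike in top edge and local background of the scan, with the mean as a line. Mmp2, Mmp3, Mmp19 and Timp1 are at or above 0 in all 4 pairs, with means from 0.56 for Mmp2 to 1.94 for Timp1, and Mmp9 is below 0 in 3 of 4.

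The genes around the members in the proteolytic pathway were read from 5 lists, of which 90 of 91 genes were found. Of these 90, 2 passed the threshold, both higher in irradiated lung, where 0.264% of all genes passed in that direction. At an unadjusted p under 0.05, 25 were higher and 1 lower, beside 7.37% of all genes higher and 980 of the 19698 lower. Groups of arrays were separate, with irradiated above control, for 9 of the 90, beside 3.38% of all genes. The median difference over the 5 lists together was 0.26.

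Of the other MMPs, 16 of 17 were found, none passed the threshold, and 6 were well above background on all arrays, with a median difference of 0.042. Mmp12, the macrophage elastase, was at 6.68, 6.33, 4.55 and 5.57 on the control and at 7.10, 8.69, 7.85, 9.39 and 9.04 on the irradiated arrays. The groups did not overlap, and the difference was 2.63 (SE 0.54, limma adjusted p = 0.0863), larger than that of any member. It was 1.67 with normexp background correction and also in the authors' normalized table. Mmp3 and Mmp12 lie in a run of 10 Mmp genes that neighbor each other in the RefSeq gene order of mouse, in the order Mmp13, Mmp12, Mmp1b, Mmp3, Mmp1a, Mmp10, Mmp8, Mmp27, Mmp20 and Mmp7, and 9 of them had a probe. Besides Mmp12 and Mmp3, the differences were 1.31 for Mmp13, 0.82 for Mmp10 and 0.45 for Mmp8, none of which passed the threshold, and −0.10, −0.28, 0.01 and −0.14 for Mmp1b, Mmp1a, Mmp20 and Mmp7. Of these, Mmp10 was well above background on only 2 of the 4 control and 4 of the 5 irradiated arrays, so its difference rests in part on values near background. Mmp13 and Mmp7 were well above background on 4 of the 5 irradiated arrays and all controls, and Mmp1a, Mmp1b and Mmp20 were well above background on at most 1 array of each group.

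Of 21 related proteases of the ADAM and ADAMTS families, none passed the threshold. At an unadjusted p under 0.05, 6 were higher and 1 lower, beside 7.37% of all genes higher and 980 of the 19698 lower. Adam9, a membrane-anchored sheddase, was the only one with separate groups, 13.56 ± 0.12 (SD, n = 4) in control and 14.12 ± 0.19 (SD, n = 5) in irradiated lung, a difference of 0.56 (limma adjusted p = 0.0764).

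The 21 genes that activate or restrain MMPs had a median difference of 0.38, and 1 passed the threshold. This gene, Spock2 (testican 2, an extracellular proteoglycan), rose from 13.10 ± 0.14 (SD, n = 4) to 13.91 ± 0.25 (SD, n = 5), by 0.81 (SE 0.13, limma adjusted p = 0.0440), with all 5 irradiated arrays above all controls. The call was lost on leaving out any 1 of the 4 control arrays or irradiated array 2, 3 or 4, with an adjusted p between 0.0311 and 0.146 over the arrays left out in turn. It was also lost with 75th percentile scaling (adjusted p = 0.0505), in the authors' normalized table (0.0704), without the variance trend (0.0892), with the replicate block (0.260) and without irradiated array 1 and control array 3 together (0.0640). Plau and Serpine2 had separate groups without passing the threshold. Plau, the protease urokinase, which can activate proMMPs through plasmin, differed by 0.93 (SE 0.24, limma adjusted p = 0.163), and Serpine2, the inhibitor protease nexin 1, by 0.64 (SE 0.16, adjusted p = 0.166). In the authors' normalized table the differences were 0.53 for Plau and 0.34 for Serpine2, and with normexp that of Plau was 0.62.

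Of 17 matrix proteins that MMPs cleave, all well above background on all arrays, 1 passed the threshold and the median difference was 0.30. Fn1, which encodes fibronectin, rose from 15.36 ± 0.11 (SD, n = 4) to 16.25 ± 0.26 (SD, n = 5), by 0.90 (SE 0.13, limma adjusted p = 0.0327). The 5 irradiated values, 15.93, 16.16, 16.15, 16.59 and 16.44, were all above the 4 control values, 15.47, 15.33, 15.40 and 15.23. The call was lost on leaving out any array except irradiated array 1, with an adjusted p between 0.0117 and 0.116, and also without the variance trend (0.0676) and with the replicate block (0.305). Tnc, which encodes the matrix glycoprotein tenascin C, also had separate groups, with a difference of 1.48 (SE 0.34, limma adjusted p = 0.122) that was 0.64 with normexp and 0.82 in the authors' normalized table.

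Of 15 cytokines and transcription factors that induce MMPs, none passed the threshold. At an unadjusted p under 0.05, 4 were higher, beside 7.37% of all genes. Il1a, the cytokine interleukin 1 alpha, was the one with separate groups, 4.87 ± 0.42 (SD, n = 4) in control and 6.28 ± 0.94 (SD, n = 5) in irradiated lung, a difference of 1.42 (limma adjusted p = 0.282) that was 0.69 with normexp and 0.85 in the authors' normalized table.

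Blocks of scan pairs changed several calls among these related genes. With the pairs as a fixed block, Spock2 no longer passed the threshold (difference 0.74, limma adjusted p = 0.0560), whereas Serpine2 did (0.67, adjusted p = 0.0269). With the pairs as a random block, Spock2 and Fn1 kept their calls. Also past the threshold in that fit were Mmp12 (adjusted p = 0.00874), Adam9 (0.00560), Plau (0.0130), Serpine2 (0.00459), Tnc (0.00898) and Il1a (0.0207).

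**Figure D5:**
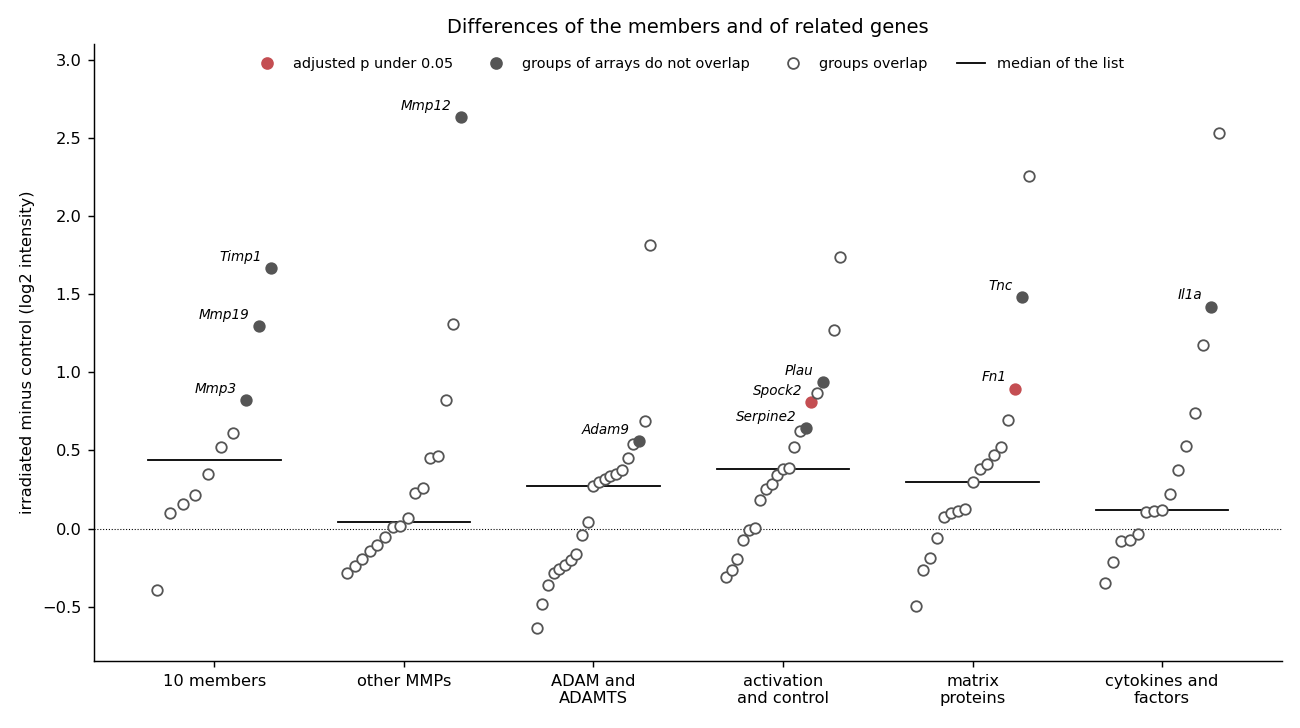
Irradiated minus control log2 intensity (y axis) of the 10 members and of the genes of 5 related lists, 1 point a gene reported, sorted within each list, with the median of the whole list as a line. Red points passed an adjusted p under 0.05 (Spock2 and Fn1, both with separate groups), filled gray points had separate groups of arrays, and Mmp12 was the highest of all at 2.63.

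Since no member passed the threshold, the genes with the most similar profiles were sought for the 2 members that differed most, Timp1 and Mmp19, by the root mean square difference between profiles centered on their means over the 9 arrays, among 15240 genes well above background on all arrays. For Timp1 these were Lcn2 (0.28), which encodes a secreted lipocalin that binds MMP9, Serpina3f (0.37), a serine protease inhibitor, and Ccl12 (0.37), a monocyte chemokine, and 19 genes lay within 0.5. Lcn2 was at 15.56, 14.93, 14.43 and 13.83 on the control and at 15.41, 17.11, 16.66, 16.60 and 16.35 on the irradiated arrays, so that irradiated array 1 lay within the control range, whereas for Timp1 it lay 0.023 above that range. For Mmp19 they were Cd200r1 (0.22), an inhibitory receptor of myeloid cells, Cpxm1 (0.26), a secreted carboxypeptidase-like protein, and Clec4n (0.26), a lectin receptor of macrophages and dendritic cells, and 277 genes lay within 0.5. These profiles describe 9 arrays, and both groups enter them.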

How the data were processed

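Lung RNA was measured on 9 one-color Agilent arrays, 4 control and 5 irradiated, grouped by their titles. For each array the authors deposited Feature Extraction output as intensity values (processed signal corrected for background, median signal, local background) that were not normalized between arrays; the software version is not given in the sources used here. The labels name Cy5, whereas the files hold the green channel. Their normalized table, also deposited, served only as an alternative. Control and outlier spots were left out. Probes were kept when their signal exceeded 1.4 times the local background on 4 or more arrays (39303 of 39429), and log2 processed signals were quantile normalized and averaged over the spots of a probe. Accessions were matched to a RefSeq gene table of GRCm38.p6, which named 26055 probes (66.1%). Between 72.8% and 89.1% of the spots of an array were well above background and no spot was saturated. Precision is limited by the number of arrays.

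Groups were compared with limma 3.58.1 in R 4.3.3 (lmFit, eBayes with an intensity trend, no covariates), with Benjamini-Hochberg adjustment over all probes kept. The code was tested on simulated data. The text names all members, the listed genes past the threshold, up to 4 genes a list with separate groups and the largest differences, and the 3 genes with the most similar profile to the members that differed most. Of the listed genes, 1 is not reported here by name. The members and lists were chosen with earlier results of these data known. The alternatives concerned background correction (normexp, offset 50), scaling (75th percentile), the filter, the table, probe averaging, the variance trend, array weights, a replicate block and leaving out arrays. The blocks of scan pairs and leaving out 2 arrays together were chosen after seeing the data.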

Additional observations from a re-analysis of the deposited data

Results flagged for a closer look

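Of 56 groups of arrays examined for a sample far from the others (19 genes and 9 marker lists), 3 (5.36%) held one. None of the 20 groups of the members did. The cutoffs of this search were set to flag about 1 in 20 groups by chance, a rate that was not measured here. Serpine2, the protease inhibitor, was at 11.37 on irradiated array 4, and between 10.88 and 10.95 on the other irradiated arrays. The cardiac muscle list stood 5.38 below the control mean (−5.38) on irradiated array 1, and between −0.46 and 0.43 on the other irradiated arrays. The skeletal muscle list stood at 3.87 on control array 3, and between −1.60 and −0.98 on the other control arrays.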

How the results depend on the processing

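The count of members past the threshold was 0 in 17 of 21 alternatives. It was 1 with the filter on all 9 arrays (Mmp19), 2 with the scan pair block, 4 with the same pairs as random block, and 0 to 2 with 1 array left out (2 without irradiated array 1, Mmp19 and Timp1). The differences of all members but Mmp11 kept their direction, and that of Mmp11 was −0.035 without irradiated array 5 (−0.035 to 0.21 with 1 array left out). Probes past the threshold numbered 131, of which 75 were higher in irradiated lung, and 114 (56 higher) with normexp, 124 (52 higher) with 75th percentile scaling, 44 (11 higher) in the table, 44 without the variance trend, 1104 with the scan pair block and 2895 with the random block. They numbered 5 to 474 with 1 array left out: 46, 14, 5 and 8 without control arrays 1 to 4 and 474, 14, 6, 18 and 23 without irradiated arrays 1 to 5. Listed pathway genes past the threshold numbered 2, 1 with percentile scaling and in the table, 0 without the trend, 10 with the scan pair block, 20 with the random block and 0 to 8 with 1 array left out (8 without irradiated array 1). The cause of these changes was not tested.

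With the replicate number as a block, 1 probe, 0 members and 0 pathway genes passed, 3265 probes had an unadjusted p under 0.05, and Mmp11 was at −0.035. Deviations of arrays with the same number correlated at 0.06, −0.02, −0.05 and −0.17, so the numbers did not pair the arrays. Normexp was run on the median signal, since the mean signal was not used here, and a slide block was not run.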

Other observations

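Among the related genes, chosen after their values were seen, those with the largest differences whose groups overlapped were Il6, Spp1 and Adamts4. Il6, the cytokine interleukin 6, was at 7.24, 6.66, 6.50 and 7.62 on the control and at 7.01, 9.48, 10.44, 10.43 and 10.30 on the irradiated arrays, with irradiated array 1 within the control range (difference 2.53, SE 0.66, limma adjusted p = 0.178). Spp1, which encodes osteopontin, was at 11.19, 10.17, 10.22 and 11.33 in control and at 10.90, 11.50, 13.89, 14.55 and 14.08 in irradiated lung, again with array 1 within the control range (difference 2.26, SE 0.74, adjusted p = 0.298). Adamts4, an aggrecan-cleaving protease, was at 6.17, 6.25, 3.37 and 6.49 in control and at 5.90, 7.73, 7.15, 7.36 and 8.77 in irradiated lung (difference 1.81, SE 0.71, adjusted p = 0.405).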
